A study of Mus musculus with 9 samples.

Results

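The Fc gamma receptor (FcγR) genes of the mouse mandible were examined in 5 wild type (WT) mice and 4 mice labelled FcγRIIB-/-. The genes were taken by symbol from the count table: Fcgr1, Fcgr3 and Fcgr4, which encode the activating receptors, Fcer1g, which encodes their shared signaling chain, Fcgr2b, which encodes the inhibitory receptor, Fcgrt, which encodes the neonatal Fc receptor, and the Fc receptor-like genes Fcrla and Fcrlb. These are 8 of the 27179 genes in the table, and all 8 had enough counts to be tested. Fcγ receptors bind the constant part of IgG on the surface of macrophages, monocytes, neutrophils, B cells and related cells. The activating receptors need the Fcer1g chain, whose tyrosine motif is phosphorylated by Src family kinases and then recruits the kinase Syk. FcγRIIB carries an inhibitory motif instead and recruits the inositol phosphatase Inpp5d, which dampens the same pathway. In bone, the Fcer1g chain also pairs with receptors such as Oscar on osteoclast precursors, the myeloid cells that fuse into bone-resorbing osteoclasts.

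All mice were 6 months old. The paper describes the FcγRIIB-/- mice as males on a C57BL/6 background, and its methods give no separate sex or strain for the WT controls. FcγRIIB-/- denotes mice that lack the inhibitory receptor and are used as a model of lupus. Which exons the deletion removes was not given in the sources used here. Each library was made from poly(A) RNA of a whole mandible with its teeth, so bone, marrow, gum, muscle and tooth tissue were read together. In such bulk samples, fewer cells of a type and less RNA per cell cannot be told apart. The labels give no batch, and the library names differ by label (A for WT, B for FcγRIIB-/-), so a batch and the labelled genotype cannot be told apart. Total counts were 24158960 to 26787359 in WT and 21453880 to 28991631 in the libraries labelled FcγRIIB-/-. The tissue was well represented: Col1a1, the main collagen of bone, averaged 31252 CPM (counts scaled to the library's normalized total) in WT, and Amelx, an enamel matrix gene, averaged 7275 CPM. WT replicate 2 held 10180 CPM summed over the immunoglobulin constant region genes, while the other WT libraries held 411 to 901 CPM. WT replicate 5 had the highest summed neutrophil markers, 3717 CPM against 1217 to 1917 CPM in the other WT libraries. For the 8 genes and the gene lists, a call lost or a count moved by more than 1.5 times when 1 library was left out is said beside the value.

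Of the 8 genes, 6 lie in a cluster on mouse chromosome 1. In the RefSeq annotation of GRCm38.p6 the order is Fcrlb, Fcrla, Fcgr2b, Fcgr4, Fcgr3 and Fcer1g. The gaps between neighbours are 3.8 kb, 28.3 kb, 42.9 kb, 21.4 kb and 163.7 kb, and the whole cluster covers 327.6 kb. Fcgr2b lies at chr1:170960558-170976071 on the minus strand, Fcgr3 at chr1:171051169-171065915 on the minus strand, Fcgr4 at chr1:171018926-171029761 on the plus strand and Fcer1g at chr1:171229572-171234349 on the minus strand. Fcgr1 lies elsewhere, on chromosome 3, and Fcgrt on chromosome 7. Because Fcgr2b and Fcgr3 are close relatives, the transcripts were compared to see which reads could be assigned to either gene. Of the 1473 windows of 75 bases (the read length) in the Fcgr2b transcript, 94 (6.38%) also occur in Fcgr3, which is 7.38% of the 1273 windows in Fcgr3. The other 6 genes shared no window of this length with any other gene of the annotation. The longest identical stretch is 129 coding bases, of which 102 are in exon 3 and 27 in exon 4 of both genes. It is shown because a read inside it names neither gene, and capitals mark the bases of exon 4. In Fcgr2b it spans chr1:170966674-170968081 and in Fcgr3 chr1:171054167-171057792, both on the minus strand with an intron between the parts.
Fcgr2b and Fcgr3: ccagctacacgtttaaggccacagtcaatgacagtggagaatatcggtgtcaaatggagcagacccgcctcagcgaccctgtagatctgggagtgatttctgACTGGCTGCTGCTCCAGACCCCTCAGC
Fcgr4 is less alike. Its closest window of 75 coding bases to Fcgr2b differs at 17 positions, shown as capitals in the following pair. The windows lie in exon 3 of each gene, at chr1:170968153-170968227 on the minus strand and chr1:171019903-171019977 on the plus strand.
Fcgr2b: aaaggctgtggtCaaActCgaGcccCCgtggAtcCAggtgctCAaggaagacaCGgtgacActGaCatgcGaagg
Fcgr4: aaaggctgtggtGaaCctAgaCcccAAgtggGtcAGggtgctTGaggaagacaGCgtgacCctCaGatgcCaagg
How the authors counted reads that match more than 1 gene was not given in the sources used here. Antisense genes also overlap Fcgr2b (Gm38204, over 3175 bases) and Fcgrt (Gm45669, over 5331 bases), and the strand setting of the counting was not given. On the same strand, Fcrla overlaps the pseudogene Gm2962 over 336 bases, Fcgr4 the small nuclear RNA gene Gm26110 over 165 and Fcgr3 the microRNA gene Mir6546 over 62.

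The targeted gene, Fcgr2b, was at least as abundant in the libraries labelled FcγRIIB-/- as in most WT libraries. It had 20.9, 38.3, 17.0, 23.1 and 20.7 CPM in WT replicates 1 to 5 and 26.5, 26.0, 26.6 and 32.1 CPM in the libraries labelled FcγRIIB-/-. The 4 labelled libraries were above 4 of the 5 WT libraries, and only WT replicate 2 was higher. The group means were 24.0 ± 8.28 CPM (SD, n = 5) and 27.8 ± 2.90 CPM (SD, n = 4), a log2 change (labelled FcγRIIB-/- over WT) of 0.21 (standard error, SE, 0.20, adjusted p = 0.442, edgeR). The 95% interval of the log2 fold change was -0.23 to 0.66, so a large fall of the total over all exons lies outside it. Without WT replicate 2 the log2 fold change was 0.46 (adjusted p = 0.0130, edgeR). A total over the gene does not tell transcripts with a deleted part from intact ones, and the groups are therefore called by their labels throughout. The sum of Fcgr2b and Fcgr3 does not depend on how reads were split between these genes. It was 51.9 ± 14.1 CPM (SD, n = 5) in WT and 44.6 ± 3.10 CPM (SD, n = 4) in the labelled group, a log2 change of -0.22 (SE 0.17, adjusted p = 0.338, edgeR).

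Fcer1g, the signaling chain that the activating receptors share, fell to 0.485 of its WT level. It had 30.5, 41.3, 25.0, 27.2 and 36.1 CPM in WT replicates 1 to 5 and 14.7, 11.4, 16.1 and 20.0 CPM in the libraries labelled FcγRIIB-/-. The groups did not overlap, with the lowest WT library above the highest labelled one. The means were 32.0 ± 6.66 CPM (SD, n = 5) and 15.5 ± 3.56 CPM (SD, n = 4), a log2 change of -1.04 (SE 0.18, adjusted p = 0.00235, edgeR; two-sided exact permutation test p = 0.00794, the smallest that 5 against 4 libraries allow). The call held without any single library, with log2 fold changes of -1.19 to -0.92.

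Among the activating receptors, Fcgr3 fell, while Fcgr1 and Fcgr4 did not pass the test. Fcgr3, the low-affinity activating receptor of macrophages, neutrophils and NK cells, had 22.9, 35.4, 19.2, 28.7 and 33.2 CPM in WT replicates 1 to 5 and 14.9, 16.6, 21.4 and 14.2 CPM in the libraries labelled FcγRIIB-/-. Replicate 3 of the labelled group lay above WT replicate 3, so the groups overlapped in 1 pair of libraries. The means were 27.9 ± 6.81 CPM (SD, n = 5) and 16.8 ± 3.25 CPM (SD, n = 4), and the log2 change was -0.73 (SE 0.19, adjusted p = 0.0140, edgeR; two-sided exact permutation test p = 0.0317). Fcgr1, the high-affinity receptor, had 4.60, 7.10, 4.63, 4.92 and 6.71 CPM in WT replicates 1 to 5 and 5.47, 7.21, 10.5 and 5.88 CPM in the labelled libraries. The ranges overlapped, with the highest value in replicate 3 of the labelled group. The log2 fold change of Fcgr1 was 0.38 (95% interval -0.11 to 0.86, adjusted p = 0.209, edgeR). Fcgr4 is an activating receptor of monocytes and neutrophils. It had 10.2, 9.11, 4.59, 4.99 and 4.41 CPM in WT replicates 1 to 5 and 4.17, 2.31, 10.5 and 12.5 CPM in the libraries labelled FcγRIIB-/-. Each group held high and low libraries, and the log2 fold change of 0.14 had a 95% interval of -0.87 to 1.15 (adjusted p = 0.835, edgeR). Its sign turned negative without replicate 3 or replicate 4 of the labelled group, with -0.23 the lowest value, so no direction can be given for Fcgr4.

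Fcgrt and the Fc receptor-like genes behaved differently from each other. Fcgrt encodes the receptor that binds IgG inside cells and returns it to the circulation. It had 158, 161, 174, 167 and 171 CPM in WT replicates 1 to 5 and 159, 142, 138 and 162 CPM in the libraries labelled FcγRIIB-/-, and these ranges overlapped. The log2 fold change of Fcgrt was -0.14 (SE 0.07, 95% interval -0.30 to 0.01, adjusted p = 0.146, edgeR). Fcrla, a receptor-like protein found inside B cells, was called lower. It had 4.71, 7.30, 2.43, 3.34 and 3.75 CPM in WT replicates 1 to 5 and 0.876, 0.370, 0.678 and 2.79 CPM in the labelled libraries. Replicate 4 of the labelled group lay above WT replicate 3, and the other 3 labelled libraries were below every WT library. The log2 fold change of Fcrla was -1.89 (SE 0.52, adjusted p = 0.0186, edgeR), and it was no longer called without replicate 1 or without replicate 3 of the labelled group, where the adjusted p reached 0.0547 in edgeR. Fcrlb, its neighbour 3.8 kb away and also a protein that stays inside the cell, was called higher on very few reads. The Fcrlb counts were 16, 23, 8, 5 and 12 in WT replicates 1 to 5 and 39, 19, 28 and 18 in the libraries labelled FcγRIIB-/-. WT replicate 2 reached the range of the labelled libraries. The log2 fold change of Fcrlb was 1.15 (SE 0.38, adjusted p = 0.0411, edgeR), and the call was lost in 8 of the 9 fits that left out a library, with an adjusted p of up to 0.106 in edgeR.

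**Figure D1:**
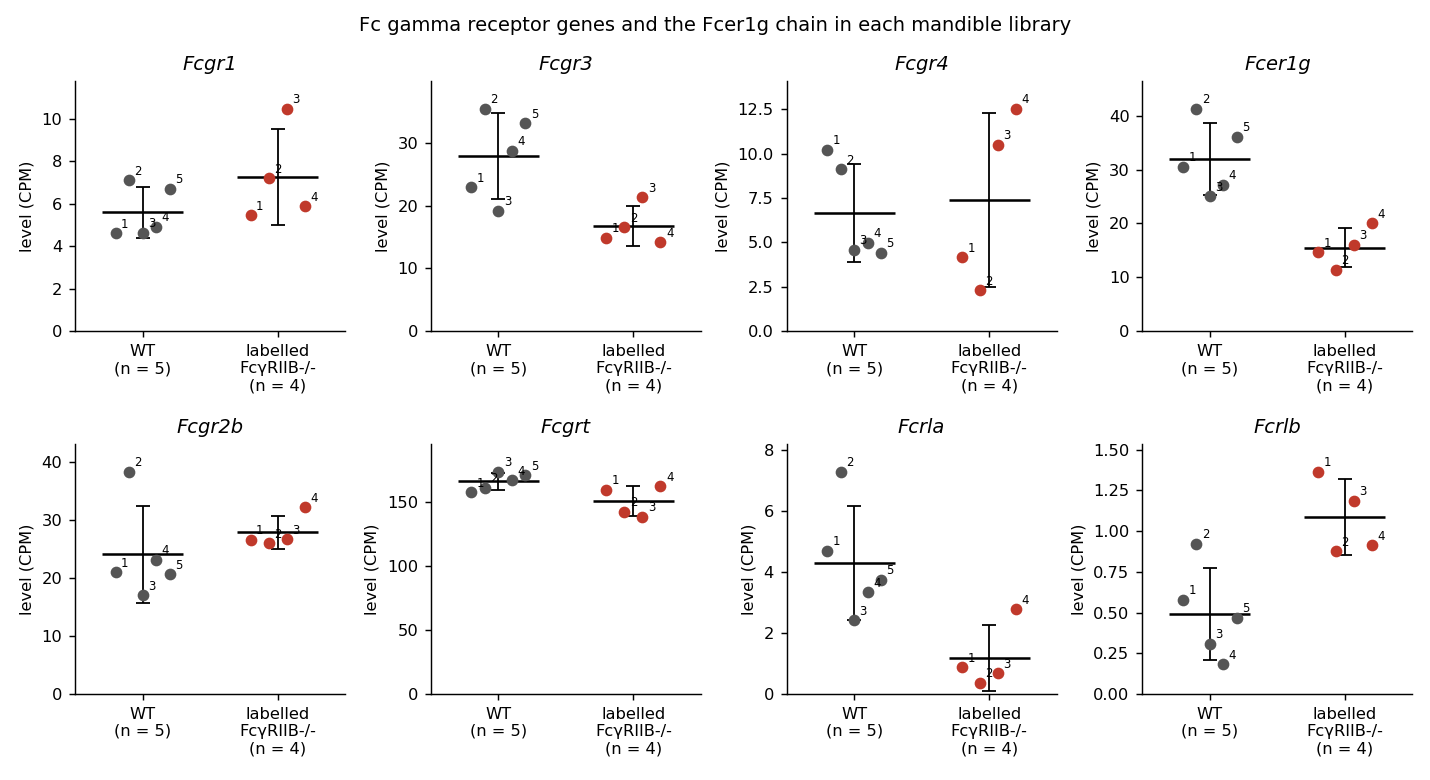
Level of each gene in CPM (y axis, starting at 0) in 5 WT libraries (grey) and 4 libraries labelled FcγRIIB-/- (red); numbers are replicates, and bars are the mean and SD. The groups do not overlap for Fcer1g, 25.0 to 41.3 CPM against 11.4 to 20.0 CPM, and they overlap for the other 7 genes.

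Of the 8 genes, 3 were called lower (Fcgr3, Fcer1g and Fcrla) and 1 higher (Fcrlb), against a background of 33.3% of all 16329 tested genes called in either direction, 19.3% lower and 14.0% higher. Only Fcer1g was without overlap between the groups, which held for 29.6% of all tested genes. Over the 8 genes the median was -4e-04 on the log2 scale, beside 0.01 over all tested genes. Without 1 library it lay between -0.21 (without replicate 4 of the labelled group) and 0.08 (without WT replicate 2). The calls of the 8 genes were the same in DESeq2, where the adjusted p was 9.22e-07 for Fcer1g, 0.00177 for Fcgr3, 8.63e-04 for Fcrla and 0.0316 for Fcrlb.

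**Figure D2:**
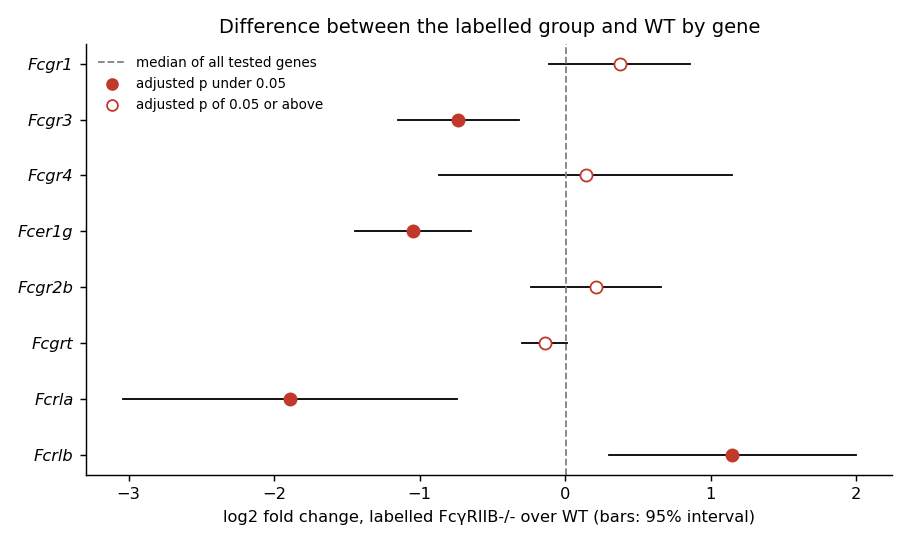
Log2 fold change of each gene in the libraries labelled FcγRIIB-/- over WT (x axis), with the 95% interval as a bar; filled points passed an adjusted p of 0.05 in edgeR, and the dashed line is the median of all tested genes. Fcer1g at -1.04, Fcgr3 at -0.73 and Fcrla at -1.89 lie left of the line, and Fcrlb at 1.15 lies right of it.

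Levels were then compared between genes after division by transcript length, in CPM per kb. In WT, Fcgrt was the most abundant at 95.5 CPM per kb, followed by Fcer1g at 46.9, Fcgr3 at 20.7, Fcgr2b at 15.5, Fcgr4 at 5.33, Fcrla at 2.59, Fcgr1 at 2.16 and Fcrlb at 0.384 CPM per kb. The libraries' ranges overlapped between Fcgr3 and Fcgr2b, between Fcgr4 and Fcrla and between Fcrla and Fcgr1, so these neighbours in the order were not separated. In the libraries labelled FcγRIIB-/-, Fcgrt at 86.6 CPM per kb was followed by Fcer1g at 22.8, Fcgr2b at 18.0, Fcgr3 at 12.4, Fcgr4 at 5.90, Fcgr1 at 2.80, Fcrlb at 0.846 and Fcrla at 0.709 CPM per kb. Here the ranges overlapped between Fcer1g and Fcgr2b, between Fcgr4 and Fcgr1 and between Fcrlb and Fcrla. The place of Fcgr2b in this order depends on its length. The part of its transcript within the RefSeq gene has 1547 bases, used above, and the whole GENCODE transcript has 3544 bases. With the whole transcripts Fcgr2b had 6.77 CPM per kb in WT and 7.85 in the labelled group, below Fcgr3 and Fcer1g without overlap in both groups. No order of Fcgr2b and Fcgr3 can therefore be given from levels per kb. Fcer1g lay above Fcgr3 without overlap in both groups.

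Counts of the activating receptor genes and of Fcer1g were set against those of Fcgr2b within each library, a ratio that needs no scaling between libraries. Fcgr2b is the targeted gene, and its total does not tell transcripts with a deleted part from intact ones. The ratios therefore compare transcript counts and do not give a balance of working receptors. The ratio of Fcgr3 to Fcgr2b was 1.10, 0.926, 1.13, 1.24 and 1.61 in WT replicates 1 to 5 and 0.562, 0.639, 0.804 and 0.442 in the libraries labelled FcγRIIB-/-. All labelled libraries were below all WT libraries, and Fcgr3 had more counts than Fcgr2b in 4 of 5 WT libraries and in none of the 4 labelled ones. On the log2 scale the ratio was lower by 0.98, written as -0.98 for labelled minus WT (two-sided exact permutation test p = 0.00794, adjusted p = 0.0198 over 5 ratios). The ratio of Fcer1g to Fcgr2b was 1.46, 1.08, 1.47, 1.17 and 1.75 in WT replicates 1 to 5 and 0.554, 0.440, 0.604 and 0.623 in the labelled libraries. These groups did not overlap either, and the log2 difference was -1.31 (two-sided exact permutation test p = 0.00794, adjusted p = 0.0198). Both calls held without any 1 labelled library or WT replicate 2. Over all 9 comparisons without a library, the log2 difference lay between -1.12 and -0.84 for Fcgr3 and between -1.40 and -1.20 for Fcer1g. Without each other WT library the adjusted p was 0.0714 (two-sided exact permutation tests), the smallest that a pair of ratios at the floor of the test can have with 4 against 4 libraries, so this loss is set by the design. The sum of Fcgr1, Fcgr3 and Fcgr4 relative to Fcgr2b was 1.81, 1.35, 1.67, 1.67 and 2.14 in WT replicates 1 to 5 and 0.925, 1.01, 1.59 and 1.01 in the labelled libraries. Replicate 3 of the labelled group fell inside the WT range, and the log2 difference was -0.63 (two-sided exact permutation test p = 0.0238, adjusted p = 0.0397). This call was lost in 7 of the 9 comparisons that left out a library, and it held without WT replicate 2 or replicate 3 of the labelled group. The ratios of Fcgr1 and of Fcgr4 to Fcgr2b differed by 0.09 and -0.33 on the log2 scale, within the spread between libraries (two-sided exact permutation tests, p = 0.754 and p = 0.579).

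**Figure D3:**
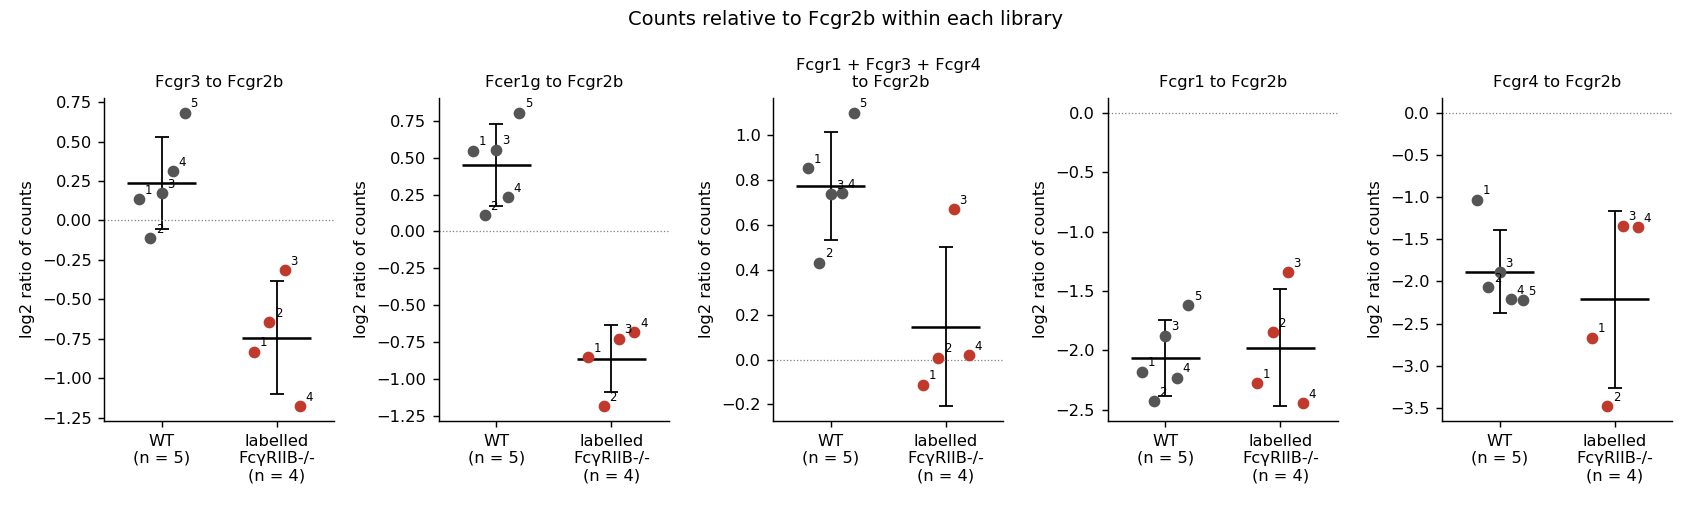
Log2 ratio of counts relative to Fcgr2b in each library (y axis; its range differs between panels), with the mean and SD as bars and replicates numbered; grey is WT (n = 5), red the libraries labelled FcγRIIB-/- (n = 4). Fcgr3 and Fcer1g separate the groups, by -0.98 and -1.31 on the log2 scale, and Fcgr1 and Fcgr4 do not.

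Since Fcγ receptors are known from myeloid cells, the levels of the 8 genes were set beside 14 markers of macrophages and monocytes in the same libraries. The marker list fell as well: 8 of the 14 genes were called lower and 0 higher, the median log2 fold change was -0.63, and the summed level was 1070 ± 274 CPM (SD, n = 5) in WT and 647 ± 74.0 CPM (SD, n = 4) in the labelled libraries. By library the sum was 909, 1348, 784, 931 and 1379 CPM in WT replicates 1 to 5 and 647, 576, 749 and 617 CPM in the labelled group, with no overlap. Lyz2, which encodes lysozyme, was the most abundant marker, and the largest falls were in Ly6c2 (log2 fold change -3.82, adjusted p = 3.55e-04, edgeR), an antigen of inflammatory monocytes, and Ccr2 (-1.47, adjusted p = 9.45e-04, edgeR), their chemokine receptor. The list did not move as 1: Cd14 (0.31), C1qb (0.20), Mertk (0.08), C1qc (0.04), C1qa (-0.06) and Cd163 (-0.64) did not pass, with the complement genes C1qa, C1qb and C1qc marking resident macrophages. None of the markers was at 0 throughout. Relative to the mean log2 CPM of these markers, Fcgr3 differed by 0.04 between the labelled group and WT (adjusted p = 0.698 over 16 comparisons, two-sided exact permutation test) and Fcer1g by -0.29 (adjusted p = 0.136, two-sided exact permutation test). Without replicate 4 of the labelled group the latter was -0.43 and passed (adjusted p = 0.0238, two-sided exact permutation test). Fcgr2b was higher relative to the markers by 1.02 and Fcgr1 by 1.11 on the log2 scale, both without overlap of the groups (adjusted p = 0.0127 each, two-sided exact permutation tests). Fcrlb was higher by 1.91, also without overlap (adjusted p = 0.0127, two-sided exact permutation test). On this scale 57.0% of all tested genes were higher without overlap, and nothing particular to the 3 of 8 is read from it. Fcgrt was higher by 0.61 (adjusted p = 0.0346, two-sided exact permutation test), a call lost in 8 of the 9 comparisons without a library. Fcgr4 (0.70, adjusted p = 0.262) and Fcrla (-1.30, adjusted p = 0.0741) did not pass the two-sided exact permutation test, and Fcrla passed without replicate 4 of the labelled group (-1.84, adjusted p = 0.0238). With C1qa, C1qb, C1qc and Lyz2 left out of the list, the difference was 0.24 for Fcgr3 (adjusted p = 0.0977, two-sided exact permutation test) and -0.09 for Fcer1g (adjusted p = 0.611, two-sided exact permutation test), and Fcgr2b and Fcgr1 were higher by 1.22 and 1.30. The part of the marker change in the receptor levels was not tested.

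**Figure D4:**
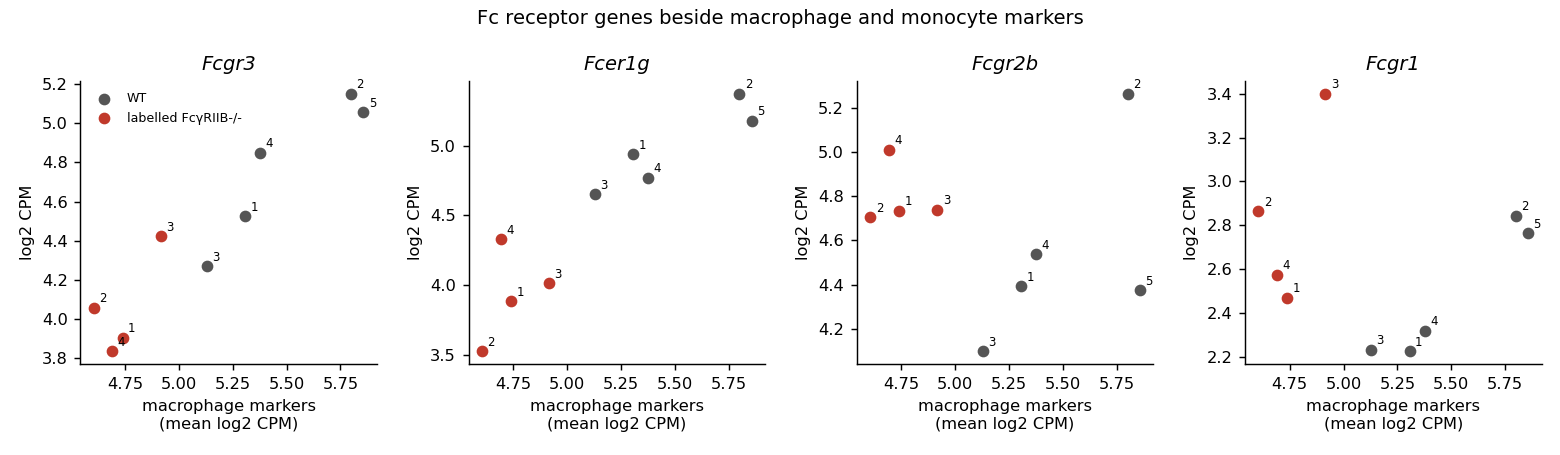
Log2 CPM of 4 genes (y axis; its range differs between panels) against the mean log2 CPM of 14 macrophage and monocyte markers (x axis) in each numbered library, grey for WT and red for the libraries labelled FcγRIIB-/-. The labelled libraries are low on the x axis in every panel; they are also low for Fcer1g and Fcgr3, whereas for Fcgr2b they lie at 4.70 to 5.01, above 4 of the 5 WT libraries.

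Other cell types that carry Fc receptors moved in the same libraries. All 13 neutrophil markers were lower (median log2 fold change -3.13), and their sum was 2030 ± 981 CPM (SD, n = 5) in WT and 287 ± 154 CPM (SD, n = 4) in the labelled group, with S100a9 the most abundant. The largest falls were in Ly6g, the antigen by which mouse neutrophils are sorted (log2 fold change -5.57, adjusted p = 3.68e-04, edgeR), and Ngp, a granule protein (-4.48, adjusted p = 0.00260, edgeR). Relative to the mean of the neutrophil markers, the 8 genes differed by 1.49 to 4.70 on the log2 scale, and 7 were higher without overlap of the groups. Since 96.2% of all tested genes were also higher without overlap on this scale, nothing about these genes in particular is read from the count. Of 8 osteoclast markers, 7 were lower, with the largest fall in Mmp9, a gelatinase (log2 fold change -1.84, adjusted p = 0.00240, edgeR). Also lower were Ctsk, the collagen-degrading protease of osteoclasts (log2 fold change -1.03, adjusted p = 6.86e-04, edgeR), and Itgb3, an integrin subunit of osteoclasts and platelets (-1.30, adjusted p = 9.53e-05, edgeR). Of 9 B cell markers, 8 were lower (median -1.96), and Cd79a, part of the B cell receptor, had a log2 fold change of -2.74 (adjusted p = 0.00567, edgeR). The WT libraries ran from 3.70 to 20.0 CPM for Cd79a, around a mean of 8.63 CPM. The size of its fall thus depends on the highest WT library. Ms4a1, which encodes CD20, had -3.15 (adjusted p = 0.0260, edgeR). Its WT libraries ran from 1.62 to 16.3 CPM around a mean of 5.13 CPM, so the size of this fall depends on the highest WT library. Ebf1, a factor of early B cells that other cells also express and the most abundant of the list, had -0.51 (adjusted p = 0.00429, edgeR). All 6 markers of mast cells and basophils, which carry Fcer1g with the IgE receptor, were lower (median -1.57), with the largest falls in Mcpt8, a basophil protease (-2.99, adjusted p = 0.00178, edgeR), and Cpa3, a mast cell protease (-2.17, adjusted p = 1.21e-04, edgeR). Of 4 tested NK cell markers 3 were lower, and of 5 dendritic cell markers 3. Of 5 T cell markers 1 was lower, a count of 0 without WT replicate 2, without WT replicate 5 or without any 1 labelled library, and the median of -1.33 became -0.14 without WT replicate 2. Of 5 tested plasma cell markers 1 was lower, and 2 without any 1 WT library. For the T cell and plasma cell markers, and for the endothelial and osteoblast genes below, the counts lower are near the background of 19.3%. In liver, Fcgr2b is known from the sinusoidal endothelium, so endothelial markers were also listed: 2 of 8 were lower (Stab2, log2 fold change -2.42, and Vwf, -0.90, both called by edgeR) and the median was 0.07. Stab2 is itself a scavenger receptor of sinusoidal endothelium. All 6 erythroid markers and all 5 megakaryocyte markers were lower, with medians of -3.80 and -1.55. Of the tissue markers, 4 of 8 skeletal muscle genes and 3 of 5 tooth genes were higher (medians 0.81 and 0.99). Over all tested genes 14.0% were higher. The muscle count was 2 without replicate 1 or replicate 4 of the labelled group and 6 without WT replicate 1. Of 7 tested genes of keratinized epithelium, 5 were lower and 1 higher (median -4.80), the latter lost in 6 of the 9 fits without a library. Of 8 osteoblast genes 2 were lower (median 0.09), and 1 without any 1 library other than WT replicate 1. What these shifts contribute to the receptor levels was not tested.

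Genes listed around the Fc receptors were mostly lower. The 8 lists held signal genes, phagocyte effectors, other receptors, MHC class I genes and immunoglobulin genes, called pathway genes below. Of their 85 genes 80 were tested, and 54 were lower and 1 was higher, beside 19.3% and 14.0% over all tested genes. The immunoglobulin list made up 10 of the 54, and the count lower was 41 without replicate 1 of the labelled group. Among 18 activating signal genes, 14 were lower and 0 higher, with a median log2 fold change of -0.72. Syk, the kinase that docks on the phosphorylated Fcer1g chain, averaged 53.1 ± 12.9 CPM (SD, n = 5) in WT and 24.0 ± 5.05 CPM (SD, n = 4) in the labelled group (log2 fold change -1.15, adjusted p = 0.00198, edgeR). Btk, a kinase downstream of Fc and B cell receptors, had the largest fall of this list, -1.83 (adjusted p = 2.30e-04, edgeR), followed by the adaptor Lat, -1.42 (adjusted p = 0.00569, edgeR). The Src family kinase Fyn, the most abundant of the list, fell by 0.28 (adjusted p = 0.00943, edgeR). Among those that did not pass, the Src family kinase Lyn and the adaptors Gab2 and Sh3bp2 had log2 fold changes of -0.11, -0.28 and -0.18. Tyrobp, the related signaling chain of myeloid and NK cells, was also lower (-0.69, adjusted p = 0.0383, edgeR).

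The inhibitory arm behind FcγRIIB fell in part. Of 9 inhibitory signal genes, 5 were lower and 0 higher (median log2 fold change -0.38), and 3 were lower when WT replicate 2, WT replicate 5 or replicate 2 of the labelled group was left out. Inpp5d, the inositol phosphatase recruited by FcγRIIB, averaged 33.4 ± 8.11 CPM (SD, n = 5) in WT and 17.6 ± 1.59 CPM (SD, n = 4) in the labelled group (-0.92, adjusted p = 0.00250, edgeR). The adaptor Dok3 had a log2 fold change of -0.93 (adjusted p = 0.00220, edgeR) and the tyrosine phosphatase Ptpn6 -0.59 (adjusted p = 0.0368, edgeR). The widely expressed phosphatase Ptpn11, the most abundant of the list, did not pass (-0.24, adjusted p = 0.0771, edgeR). Of 12 other receptors with inhibitory motifs, 8 were lower and 0 higher (median -0.77). Cd22, an inhibitory receptor of B cells, and Cd33, one of myeloid cells, had log2 fold changes of -2.12 (adjusted p = 0.0150, edgeR) and -1.82 (adjusted p = 3.79e-04, edgeR). For Cd22 the WT libraries ran from 3.47 to 20.8 CPM around a mean of 7.87 CPM, so the size of its fall depends on the highest WT library. Sirpa, the most abundant, did not pass (-0.26, adjusted p = 0.0585, edgeR).

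Most listed effectors of phagocytosis fell. Of 10 genes of the phagocyte oxidase and its actin machinery, 9 were lower and 0 higher, with a median log2 fold change of -1.48, and the 9 called genes ran from -0.41 for Cyba, a subunit of the oxidase, to -1.90 for Rac2. Cybb, the catalytic subunit of the oxidase, averaged 64.6 ± 25.3 CPM (SD, n = 5) in WT and 19.1 ± 4.07 CPM (SD, n = 4) in the labelled group (-1.76, adjusted p = 0.00153, edgeR). Rac2 is the GTPase that activates the oxidase in blood cells (-1.90, adjusted p = 8.33e-04, edgeR). Arpc1b, an actin-branching subunit used by many cell types and the most abundant of the list, did not pass (0.14, adjusted p = 0.286, edgeR).

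Partners of the Fcer1g chain other than Fcγ receptors were sparse. Of 9 listed, 6 had enough counts, and 3 of these were lower and 0 higher (median -1.45). Fcer1a, the IgE-binding subunit on mast cells, went from 0.928 ± 0.280 CPM (SD, n = 5) to 0.0629 ± 0.0179 CPM (SD, n = 4), with a log2 fold change of -3.75 (adjusted p = 2.30e-04, edgeR). Gp6, the collagen receptor of platelets, had a log2 fold change of -3.00 (adjusted p = 0.00397, edgeR), and Oscar, the receptor of osteoclast precursors, -1.27 (adjusted p = 0.00953, edgeR). Clec4n, a lectin that senses fungal mannans and the most abundant of the list, did not pass (-0.30, adjusted p = 0.520, edgeR). Among other antibody receptors, 8 of 9 were tested, and 2 were lower and 1 higher (median -0.93, and -0.58 without WT replicate 2). These counts are near the shares over all tested genes, 19.3% lower and 14.0% higher, and nothing about this list is read from them. Fcer2a, the low-affinity IgE receptor of B cells, had a log2 fold change of -3.67 (adjusted p = 0.00971, edgeR). Its WT libraries ran from 0.688 to 6.58 CPM around a mean of 2.09 CPM, so the size of this fall depends on the highest WT library. Fcrl6 was higher by 0.69 (adjusted p = 0.0351, edgeR), a call lost in 5 of the 9 fits that left out a library. Fcmr, the receptor for IgM, did not pass (-2.15, adjusted p = 0.0626, edgeR). Fcrls, the most abundant of this list, did not pass (-0.28, adjusted p = 0.0685, edgeR). Fcgrt works as a pair with B2m, which did not pass either (-0.28, adjusted p = 0.162, edgeR). Of 6 genes for B2m and MHC class I presentation, 3 were lower and 0 higher, beside 19.3% lower and 14.0% higher over all tested genes. The median was -0.37, and -0.23 without WT replicate 2. Only 1 was lower without replicate 1 or without replicate 3 of the labelled group, so nothing about this list is read from the count. Among its genes called with all libraries were H2-D1 at -0.46 (adjusted p = 0.0205, edgeR) and the peptide transporter subunit Tap1 at -0.53 (adjusted p = 0.0176, edgeR).

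**Figure D5:**
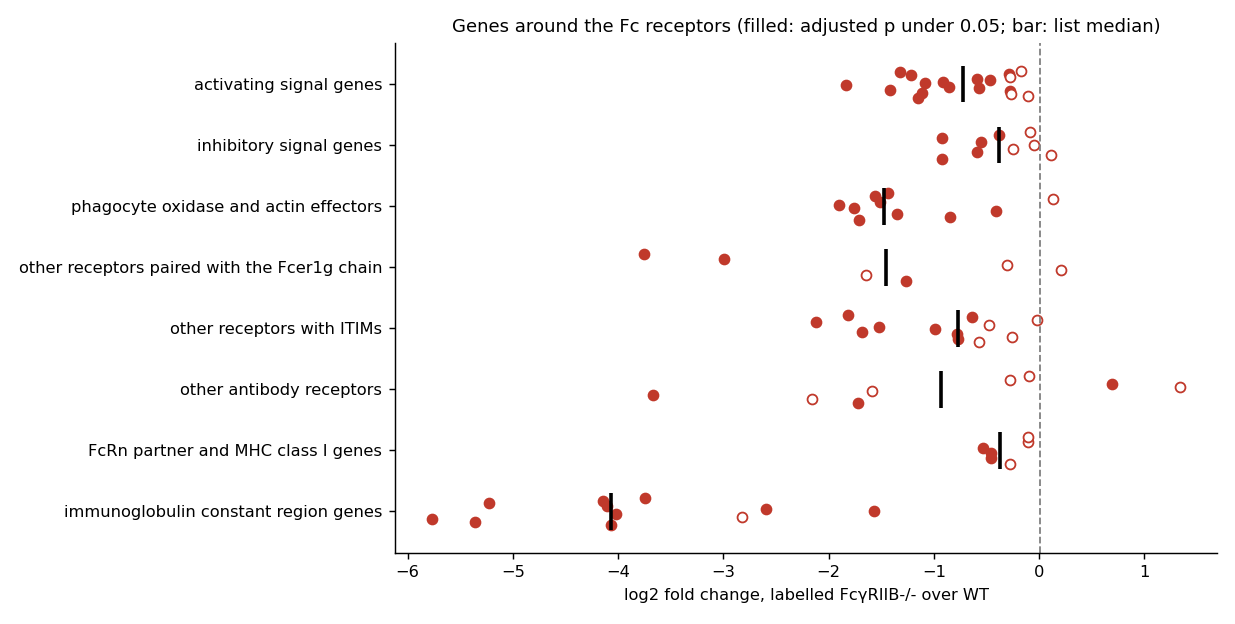
Log2 fold change of each tested gene in 8 lists around the Fc receptors (x axis, libraries labelled FcγRIIB-/- over WT); filled points passed an adjusted p of 0.05 in edgeR, black bars are list medians and the dashed line is the median of all tested genes. List medians run from -0.37 for FcRn partner and MHC class I genes to -4.07 for the immunoglobulin genes, and 1 filled point, Fcrl6, lies right of the line.

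Transcripts of the ligand were lower as well, with WT replicate 2 deciding the size and the count depending on the labelled libraries left in. Of 12 immunoglobulin constant region genes, with the joining chain Jchain counted among them, 11 were tested and 10 were lower and 0 higher (median log2 fold change -4.07). Their summed level was 426, 10180, 434, 411 and 901 CPM in WT replicates 1 to 5 and 118, 206, 119 and 171 CPM in the libraries labelled FcγRIIB-/-. WT replicate 2 was far above all others, and the groups did not overlap even without it. Without WT replicate 2, 9 of 11 were lower and the median was -1.78. With WT replicate 2 kept, the count was 3 without replicate 1 of the labelled group, 7 without replicate 2, 4 without replicate 3 and 6 without replicate 4, and the medians stayed between -4.35 and -3.75. Without WT replicate 2, the IgG genes Ighg2b and Ighg2c had log2 fold changes of -2.90 (adjusted p = 0.00761, edgeR) and -2.27 (adjusted p = 0.0217, edgeR), in place of -5.36 and -5.77 with it. Ighg1 was called with all libraries (-4.07, adjusted p = 0.0371, edgeR) and not without WT replicate 2 (-1.45, adjusted p = 0.0672, edgeR), and Ighg3 was called in neither. Ighm, the IgM gene of B cells, was less affected by that library, with a log2 fold change of -1.57 with it and -1.18 without it. The genes of IgA (Igha, -1.76), IgD (Ighd, -1.57), the light chains (Igkc, -1.78; Iglc1, -3.01; Iglc2, -1.96) and Jchain (-2.00) were also lower without it, all called by edgeR.

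How the receptors varied among themselves was described over the 9 libraries after the mean of each labelled group was removed, so that only differences between mice of 1 group remained. These values share library and depth and are descriptions. Fcgr3 varied with Fcgr1 (Pearson r = 0.88), and less with its neighbours Fcgr2b (0.54) and Fcgr4 (0.11). Fcer1g varied with Fcrla (0.87), Fcgr4 (0.72) and Fcgr2b (0.70) more than with Fcgr3 (0.44). Among 12959 genes whose average log2 CPM reached 2, those most like Fcer1g included Dennd1c (r = 0.99), Myo1g (0.98), Themis2 (0.97) and Dok3 (0.97), of which Dok3 is in the signaling lists. The 5 most like Fcgr2b were Cd38, AW112010, Il10rb, Neurl3 and Cmah (r from 0.96 to 0.94). Those most like Fcgr3 were Prdx4, Zfp984, Zfp747, Fen1 and Golph3l (0.98 to 0.96), and those most like Fcgrt were Nop53, Flad1, Eda, Rbfa and Adrm1 (0.98 to 0.92).

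The promoters of the clustered genes were read for the letters GAGGAA on either strand, which form the core of many sites of PU.1, a transcription factor of macrophages and B cells. For each gene the 250 bases before a start listed in RefSeq (GRCm38.p6) were read. For Fcgr3, Fcrla and Fcrlb that start lies inside the gene, and the region before the outermost start of these genes was not read. In these windows, Fcgr1, Fcgr3, Fcgr4, Fcrla and Fcrlb have 1 match each, and Fcgr2b, Fcer1g and Fcgrt have none, while 23.3% of 32851 promoters have at least 1. The last 100 bases before the start are shown for the inhibitory receptor, the activating receptor that fell and the shared chain, with a match in capitals, where TTCCTC is GAGGAA on the other strand. All 3 lie on the minus strand, at chr1:170976072-170976171, chr1:171059404-171059503 and chr1:171234350-171234449. The Fcgr2b and Fcer1g windows adjoin the outer end of the gene, and the Fcgr3 window lies inside the gene.
Fcgr2b: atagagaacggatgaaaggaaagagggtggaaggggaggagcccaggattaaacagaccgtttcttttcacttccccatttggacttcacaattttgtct
Fcgr3: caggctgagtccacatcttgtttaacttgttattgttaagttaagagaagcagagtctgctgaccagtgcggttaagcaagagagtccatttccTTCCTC
Fcer1g: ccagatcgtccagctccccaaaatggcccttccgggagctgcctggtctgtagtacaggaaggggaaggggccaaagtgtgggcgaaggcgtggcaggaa
Genes with a match (Fcgr3 and Fcrla lower, Fcrlb higher, Fcgr1 and Fcgr4 not called) and without one (Fcer1g lower, Fcgr2b and Fcgrt not called) both held called and uncalled genes. A match in this window is a description of the sequence and no measure of binding.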

How the data were processed

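Total RNA of whole mandibles with teeth was made into poly(A), strand-marking libraries and sequenced as single reads of 75 bases. Reads had been trimmed (Trim Galore), aligned to mm10 (HISAT 02.1.0) and assigned to genes (featureCounts), and the authors deposited the resulting raw counts. The annotation, the strand setting and the treatment of reads matching several genes were not given in the sources used here. A total of 1 per-sample column matched no sample and was not used, and 1030 features without a symbol, about 0.1% of the counts, were kept under their identifiers. Groups and replicate numbers came from the sample labels, and the study counts each library as 1 mouse. Within a labelled group, pairs of libraries differed in their counts by a chi-square of 12.5 to 120 per gene, and none was counted as a duplicate. The 8 genes and all gene lists were chosen with earlier results of these data known.

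Genes were filtered with filterByExpr (minimum count 10), normalized with TMM and compared with the quasi-likelihood test of edgeR 4.0.16 in R 4.3.3 over all 9 libraries without covariates, with Benjamini-Hochberg adjustment over all 16329 tested genes at 0.05. CPM are scaled to TMM library sizes, and log2 CPM used a prior count of 2. Ratios of counts (pseudocount 0.5) and levels relative to marker means were tested by two-sided exact permutation over 126 splits. Levels per kb used the longest coding GENCODE transcript within the RefSeq gene, or the whole transcript as an alternative chosen after the levels were seen. The deposited counts give the depth, and genes with few counts, such as Fcrlb, carry counting error. DESeq2 1.42.0, other normalizations and filters, a replicate block, summed paralogs, a fold limit and leaving out each library were alternatives, and the last were also used to count list members without each library, chosen after the data were seen. Named genes were the 8 genes, of each list the most abundant gene and those with the 2 largest changes, and Syk, Inpp5d, Ptpn6, Btk, Tyrobp, B2m, the immunoglobulin genes and the 5 genes most like each of 4 members. Oscar, Lyn, Gab2, Sh3bp2, Cyba, Fcrl6 and Stab2 were described beside these, and those outside the rule were chosen after their values were seen. Of the marker lists for other cells and tissues, not every gene covered by the rule is printed. Plasma cell, NK cell and dendritic cell lists are given by counts. T cell, erythroid, megakaryocyte, muscle and keratinized epithelium lists are given by counts and medians. A further gene covered by the rule is not reported here. Gene sequences and positions are from RefSeq (GRCm38.p6) and GENCODE (GRCm38); promoters were found for all 8 genes.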

Additional observations from a re-analysis of the deposited data

Results flagged for a closer look

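Over 60 groups of 4 or 5 libraries, 6 held a library whose gap to the nearest of the others was large beside the range of its group, where about 1 in 20 groups would by chance. For Fcgr2b, replicate 4 of the libraries labelled FcγRIIB-/- had a log2 CPM of 5.01, while the other 3 lay between 4.70 and 4.74. For the ratio of activating receptors to Fcgr2b, replicate 3 of the labelled group had a log2 value of 0.67, with the others between -0.11 and 0.02. This is the library with the highest Fcgr1 and Fcgr3 of its group. For the ratio of Fcgr4 to Fcgr2b, WT replicate 1 had a log2 value of -1.03, with the others between -2.22 and -1.89. WT replicate 2 stood apart in 3 lists. Its mean log2 CPM was 8.21 over the immunoglobulin constant region genes (others 3.71 to 4.93), 6.00 over the plasma cell markers (others 4.62 to 4.94) and 2.65 over the T cell markers (others -0.12 to 0.55). The same library had the highest Fcgr1, Fcgr2b, Fcgr3, Fcer1g, Fcrla and Fcrlb of the WT group.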

How the results depend on the processing

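The falls of Fcer1g and Fcgr3 kept their direction and their call in every normalization and filter tried, in DESeq2 and without any single library. Over all genes, the count of higher genes was 1309 with library totals in place of TMM, and 181 were higher and 1069 lower with a log2 fold change of at least 1. With library totals only, Fcgrt passed as lower (-0.22, adjusted p = 0.0324, edgeR) and Fcrlb did not pass (1.08, adjusted p = 0.0541), nor did Fcrlb with no filter on low counts (1.14, adjusted p = 0.0582); Fcrla and Fcrlb could not be tested with at least 10 counts in every library. The summed counts of Fcgr2b and Fcgr3 had a log2 fold change of -0.22 (adjusted p = 0.338, edgeR), and with Fcgr4 added -0.17 (adjusted p = 0.475, edgeR). A sum of genes with fold changes of opposite sign tests none of them singly.

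The replicate numbers gave no sign of pairs: same-numbered libraries correlated at 0.0969, 0.0276, -0.114 and -0.0739, and 1 of 8 libraries correlated best with its own number. Such correlations cannot show that the mice were unpaired, and pairing by litter or cage was not tested. A fit with the number as a block left 1853 genes higher and 2232 lower. In that block fit Fcgr3 had -0.62 (adjusted p = 0.0614), Fcgr4 -0.11 (adjusted p = 0.907) and Fcrlb 1.25 (adjusted p = 0.0675), and 0 pathway genes were higher.

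Leaving out each library gave log2 fold changes of 0.14 to 0.49 for Fcgr1, 0.13 to 0.46 for Fcgr2b, -0.87 to -0.62 for Fcgr3, -0.23 to 0.44 for Fcgr4, -0.18 to -0.10 for Fcgrt, -2.71 to -1.60 for Fcrla and 0.96 to 1.51 for Fcrlb. The log2 difference of the activating ratio was -0.80 to -0.54, of Fcgr3 to Fcgr2b -1.12 to -0.84, of Fcer1g to Fcgr2b -1.40 to -1.20, of Fcgr4 to Fcgr2b -0.62 to 0.10 and of Fcgr1 to Fcgr2b -0.12 to 0.24. The ratios of Fcgr3 and of Fcer1g to Fcgr2b kept their calls without any 1 labelled library and without WT replicate 2 (adjusted p of 0.0298 to 0.0476) and without each other WT library reached 0.0714, the smallest that a pair of ratios at the floor of the test can have with 4 against 4 libraries, which says nothing about stability. The activating ratio lost its call in 7 of 9 comparisons, at adjusted p of 0.0595 without replicate 1, 2 or 4 of the labelled group and 0.0952 without WT replicate 1, 3, 4 or 5. Relative to the macrophage markers, Fcgr3 differed by -0.0215 to 0.10, Fcer1g by -0.43 to -0.19, Fcgrt by 0.53 to 0.72 and Fcrla by -1.84 to -0.97. Pathway genes called lower numbered 41 to 58 and called higher 0 to 1. Fcrlb had 5 to 39 counts in a library, and the effect of depth on its call was not tested.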
